A study of Homo sapiens with 6 samples.

Results

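The 10 genes described here supply and turn over arginine and the polyamines, and they were followed through RNA-seq and Ribo-seq, in which only the mRNA stretches covered by ribosomes are sequenced as footprints. The cells were 786-O, an established line of clear cell renal carcinoma without functional VHL. They were taken by gene symbol (ASS1, ASL, ARG2, ODC1, AMD1, SRM, SMS, SAT1, OAZ1 and AZIN1), each on 1 row, out of 19669 genes in the deposited table. The set was chosen because ASL mRNA was lower in the libraries labelled WT and MT than in EV without the same difference in footprints, so the ASL values against EV are given as a description and support nothing. There were 3 labels with 1 library per label and assay, 6 libraries in all: MT (a PHYHD1 lacking residues 107 to 130, per the series title), WT (PHYHD1-WT in the title and in the column names) and EV (empty vector). All 3 Ribo-seq libraries came from cells given cycloheximide before lysis. PHYHD1 is a member of the iron- and 2-oxoglutarate-dependent dioxygenase family. The design text disagrees with the title, since it calls MT the PHYHD1 overexpression and WT untreated, and it gives 3 dishes per condition without saying whether they were pooled; the sources used here give neither the number of clones nor the promoter that drove PHYHD1.

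PHYHD1 itself stood at 109.5 FPKM in MT, 118 FPKM in WT and 0.092 FPKM in EV, and its footprints at 905 TPM in MT, 222 TPM in WT and 0 in EV, so that the library labelled WT goes against the design text, and libraries are named here by label. Of 10 renal tubule and renal carcinoma markers, 8 to 9 reached 1 unit in each library, led by VIM, while CA9 was under 0.1 units in all 6. Of 10 markers of other cell types (blood, endothelium, liver, pancreas, other epithelia, fibroblast) at most 1 reached 1 unit in any library, and their summed level was 0.638 to 1.91 units, with CD3E, PECAM1, CDH5 and INS at 0 in all 6 libraries. With 1 library per label and assay no p-value, SD or SE can be given, and every difference is between libraries, which may be technical as well as biological. A gene counts as higher or lower below at a 2-fold difference or more after 1 unit is added to both values (an absolute difference of 1 on the log2(value + 1) scale), a threshold of size with no test behind it. Read totals are unknown. Steps between low values put 1 read at about 0.95 times its EV worth in both other RNA-seq libraries, and at 0.95 (MT) and 1.27 (WT) times in Ribo-seq, so that the WT footprint library had the coarsest values.

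Arginine is made in the cytosol when ASS1 joins citrulline to aspartate and ASL splits the product, argininosuccinate, into arginine and fumarate. Arginase, of which ARG2 is the mitochondrial form, turns arginine into ornithine, and ODC1 turns ornithine into putrescine, the first polyamine. SRM and SMS then add aminopropyl groups, supplied by the AMD1 product, to give spermidine and spermine. SAT1 acetylates both for export or oxidation. The pathway is controlled largely in translation and protein turnover: the antizyme OAZ1 binds ODC1 and sends it to the proteasome without ubiquitin, its own mRNA needs a ribosomal frameshift that polyamines favour, and AZIN1, a relative of ODC1 without enzyme activity, holds antizyme away from ODC1. Low ASS1 and ARG2 are a known feature of clear cell renal carcinoma.

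Some sequence elements were looked for close to the start sites of these genes. Windows from 250 bases before to 50 bases after each annotated start were available from RefSeq (build GRCh38.p14) for 9 of the 10 genes, and AZIN1 had no entry. The AMD1 leader holds a short upstream open reading frame, known to slow ribosomes when polyamines are plentiful, and it is shown because footprints counted over a gene may or may not include it; capitals mark its start and stop codons (chr6:110874796-110874816, plus strand).
AMD1: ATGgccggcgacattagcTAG

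The E-box CACGTG, a palindrome and so the same on both strands, is the site of MYC and related factors and is known in ODC1. It was found in the windows of ASS1, ODC1 and SRM, 3 of the 9 genes, against 8.77% of the 27305 genes in the table (7.26% of its 35116 windows), with a gene counted where any of its windows held the motif. The upstream matches are shown for these genes with the motif in capitals, at chr2:10448024-10448053 (minus strand) for ODC1, chr1:11060200-11060229 (minus strand) for SRM and chr9:130444878-130444907 (plus strand) for ASS1. ODC1 and ASS1 had 2 start site windows each, and which of the starts is the main one was not examined. Whether the ODC1 match is the known site was not examined either.
ODC1: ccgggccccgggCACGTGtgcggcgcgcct
SRM: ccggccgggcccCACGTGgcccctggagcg
ASS1: gcgcgtccccgcCACGTGtccccggtcacc

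For ASL, the gene with the largest mRNA difference of the set, the 250 bases before the start site are shown (chr7:66075569-66075818, plus strand), with capitals for GC boxes (GGGCGG) and CCAAT boxes on either strand, which do not overlap there. The window held no E-box and no TGATGNAA, the core of amino acid response elements.
ASL: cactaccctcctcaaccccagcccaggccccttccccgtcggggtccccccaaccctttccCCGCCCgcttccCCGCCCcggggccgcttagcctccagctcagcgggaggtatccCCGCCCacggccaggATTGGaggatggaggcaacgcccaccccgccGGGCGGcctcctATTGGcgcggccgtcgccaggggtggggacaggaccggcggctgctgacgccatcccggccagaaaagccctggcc
Both boxes are common, with GGGCGG in 8 of the 9 genes and 48.3% of all genes (45% of windows) and CCAAT in 7 of the 9 and 39.7% (34.6% of windows), searched on both strands. TGATGNAA was in 0 of the 9 genes and 4.46% of all genes (3.62% of windows). A match is only a match of letters in these windows.

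ASL was the only one of the 10 genes past the 2-fold rule in either assay. Its mRNA (ENSG00000126522.17) stood at 13.7 FPKM in MT and 13.2 FPKM in WT, against 40.9 FPKM in EV, a level 0.335 times that of EV in MT and 0.323 times in WT. Both PHYHD1 libraries were therefore low by nearly the same amount, and they share the single EV library as comparator. In a bulk library fewer cells with a transcript and less of it per cell cannot be told apart. Among genes at 10 FPKM or more in a library compared, ASL had the lowest log2 difference of 6562 genes in MT over EV (-1.51) and of 6587 genes in WT over EV (-1.56). Over all genes measured, 0.29% passed the rule in MT over EV (0.172% lower) and 0.499% in WT over EV (0.263% lower), and these contrasts are the ones ASL was chosen on.

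ASL footprints did not follow the mRNA. They stood at 34.9 TPM in MT, 26.7 TPM in WT and 33.3 TPM in EV, which is 1.05 times EV in MT and 0.803 times EV in WT. Of genes at 10 TPM or more, 29.3% differed at least as much as ASL did between WT and EV. The ratio of footprints to mRNA was 2.54 in MT and 2.02 in WT, against 0.812 in EV, where the median gene at 10 units in both assays had 1.43 in MT, 1.42 in WT and 1.44 in EV. In EV the ASL ratio lay above 23.2% of genes, while in MT it lay above 75% and in WT above 66.2%. The log2 difference of the ratio was 1.58 in MT over EV and 1.26 in WT over EV, comparisons in which 3.51% and 4.21% of all genes passed the rule (2.19% and 2.47% upward). In MT over WT 0 of the 9 genes measured passed by ratio, against 4.82% of all genes. A fixed footprint value beside a lower mRNA value yields a higher ratio by arithmetic. Between the 2 PHYHD1 libraries ASL differed little in mRNA (log2 difference 0.05, MT over WT), and its footprints were 1.30 times higher in MT, a log2 difference of 0.37 that 19.8% of well measured genes matched or exceeded.

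**Figure D1:**
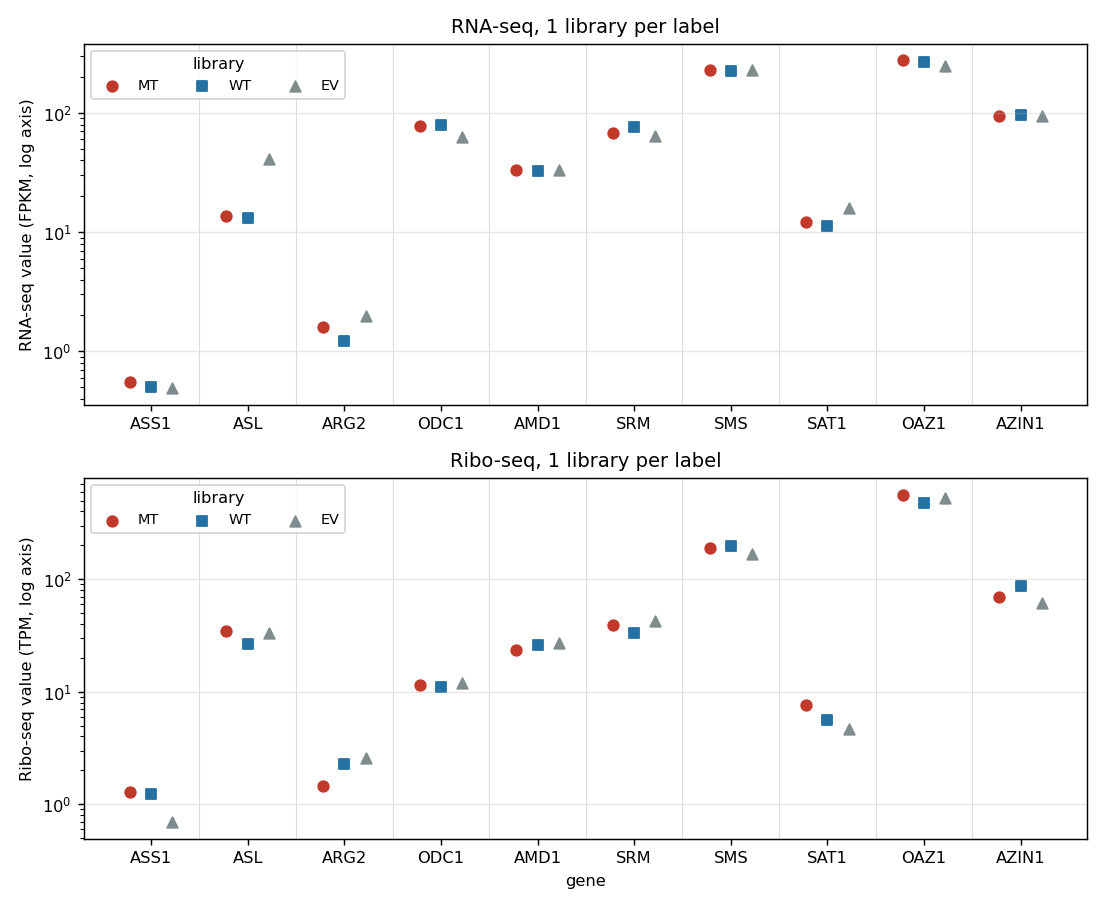
Values of the 10 genes in each library, RNA-seq in FPKM (upper panel) and Ribo-seq in TPM (lower panel), on log axes with 1 point per library (MT, WT, EV). ASL mRNA is at 13.7 and 13.2 FPKM in MT and WT and at 40.9 FPKM in EV, while its footprints lie between 26.7 and 34.9 TPM.

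Genes like ASL were sought among 4722 genes at 10 units or more in all 6 libraries. Of these, 2 had mRNA lower past the rule in both MT and WT over EV. They were ASL, chosen on these contrasts, and SNRPD3, a core protein gene of the spliceosome. The minimum leaves out any gene whose mRNA was under 10 FPKM in MT or WT, so the count does not show how rare the pattern is. Over all genes measured, 19 were lower in MT over EV and 29 in WT over EV. Likeness was measured as the Euclidean distance over the 4 log2 differences against EV (MT and WT in each assay), where the 4 values share the EV libraries. SNRPD3 was nearest at a distance of 0.57, with 20.3 FPKM in MT, 21.6 FPKM in WT and 50.1 FPKM in EV and with footprints of 203, 204.6 and 200.4 TPM. The next was TRAPPC2L, a subunit of a vesicle tethering complex, at a distance of 1.03, with 14.6, 15.2 and 27.3 FPKM and 158, 136 and 143 TPM in MT, WT and EV. EMC2 (1.26), NUDT9 (1.37) and HMGN5 (1.39) followed, and their mRNA differences of -0.42 to -0.87 stayed short of the rule.

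The step before ASL was barely expressed. ASS1 (ENSG00000130707.18) mRNA was at 0.549 FPKM in MT, 0.503 FPKM in WT and 0.489 FPKM in EV, below the 1 unit needed to enter an mRNA comparison. Its footprints were at 1.28 TPM in MT, 1.23 TPM in WT and 0.689 TPM in EV. Values this low rest on few reads, and the RefSeq table names 14 ASS1 pseudogenes with which reads could be shared, so the ASS1 footprint differences of 0.44 and 0.40 (log2, MT and WT over EV) are uncertain. ASL mRNA thus stood 25 times above ASS1 mRNA in MT, 26.3 times in WT and 83.7 times in EV, on the per-length scale of the columns.

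ARG2 (ENSG00000081181.8), the mitochondrial arginase, was likewise low, at 1.59 FPKM in MT, 1.21 FPKM in WT and 1.96 FPKM in EV, with footprints of 1.46, 2.27 and 2.56 TPM. Both assays put it lower in MT and in WT than in EV, by log2 differences of -0.19 and -0.42 in mRNA and -0.53 and -0.12 in footprints, none past the rule. Its order between MT and WT was opposite in the 2 assays.

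Polyamine synthesis began with the most distinctive ratio of the set. ODC1 (ENSG00000115758.14) mRNA was at 77.9 FPKM in MT and 79.8 FPKM in WT, against 62.6 FPKM in EV, 1.25 and 1.28 times the EV value. Its footprints were at 11.5 TPM in MT, 11 TPM in WT and 12 TPM in EV. The mRNA differences (log2 0.31 and 0.35) were short of the rule, and 6.84% and 7.41% of genes at 10 FPKM or more differed by at least as much. The footprint differences were -0.06 and -0.12, so the higher mRNA value had no counterpart in footprints. The ratio of footprints to mRNA was 0.148 in MT, 0.138 in WT and 0.192 in EV, and only 0.376%, 0.294% and 0.636% of genes at 10 units in both assays had a lower one. ODC1 mRNA has a long, structured leader and is known to be poorly translated. ODC1 held the fourth highest mRNA value of the set in MT and WT and the fifth in EV, but the seventh highest footprint value in every library.

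The later enzymes of synthesis were close to level. AMD1 mRNA was at 33.4 FPKM in MT, 32.8 FPKM in WT and 33.1 FPKM in EV, and its footprints were at 23.3, 26.1 and 27.4 TPM. SMS, the spermine synthase, was the second most abundant gene of the set in both assays, with 229.6 FPKM in MT, 225 FPKM in WT and 229 FPKM in EV and with 188, 198 and 168 TPM. For both genes the mRNA differed by at most 0.03 (log2) in any comparison. The footprints of AMD1 were lower in both PHYHD1 libraries (-0.22 and -0.06) and those of SMS higher (0.16 and 0.23), sizes that 32.6% or more of genes at 10 TPM or more reached.

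SRM, the spermidine synthase (ENSG00000116649.10), had differences over EV of opposite sign in the 2 assays, as did ODC1 and SAT1. Its mRNA was at 67.4 FPKM in MT, 76.9 FPKM in WT and 64.5 FPKM in EV, and its footprints at 39.1 TPM in MT, 33.3 TPM in WT and 42.3 TPM in EV. WT had the highest mRNA value and the lowest footprint value of the 3 libraries. Its footprint differences in MT and WT over EV were matched or exceeded by 58.9% and 25.3% of genes at 10 TPM or more. The ratio of footprints to mRNA was 0.58 in MT, 0.434 in WT and 0.656 in EV. Its log2 difference of -0.59 in WT over EV was a size that 10.1% of genes at 10 units or more in both assays reached. SMS stood above SRM by 3.41, 2.93 and 3.55 times in mRNA and by 4.8, 5.94 and 3.98 times in footprints in MT, WT and EV. The RefSeq table names 4 AMD1 and 3 SRM pseudogenes, and 1 each for SMS, ASL, ARG2 and OAZ1, which could share reads with their parent genes. Of the genes with an E-box, ODC1 and SRM had mRNA above EV in both PHYHD1 libraries. The differences were 0.06 to 0.35 (log2), short of the rule. The lowest, SRM in MT, was matched or exceeded by 65.7% of genes at 10 FPKM or more. ASS1 was too low to compare. OAZ1, without an E-box in its window, was also above EV in both (0.15 and 0.11), as was AZIN1, which had no window (0.01 and 0.04). ASL, ARG2 and SAT1, without an E-box, were below EV in both. SMS and AMD1 differed in sign between MT and WT over EV. A link between the motif and mRNA was not tested.

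SAT1, the acetyltransferase of polyamine breakdown (ENSG00000130066.17), differed from EV in mRNA in the direction opposite to ODC1. Its mRNA was at 12.1 FPKM in MT and 11.2 FPKM in WT, against 15.8 FPKM in EV. Its footprints were at 7.55 TPM in MT and 5.65 TPM in WT, against 4.66 TPM in EV. Both PHYHD1 libraries were thus lower in mRNA (log2 -0.36 and -0.46, a size reached by 4.37% and 2.76% of genes at 10 FPKM or more) and higher in footprints (0.59 and 0.23). The ratio of footprints to mRNA was 0.624 in MT, 0.504 in WT and 0.295 in EV. Its log2 difference of 0.95 in MT over EV lay just short of the rule, and that of WT over EV was 0.69. SAT1 translation is known to be released by polyamines. Its footprint values are under 10 TPM and so rest on fewer reads per length than those of the other enzymes apart from ASS1 and ARG2.

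**Figure D2:**
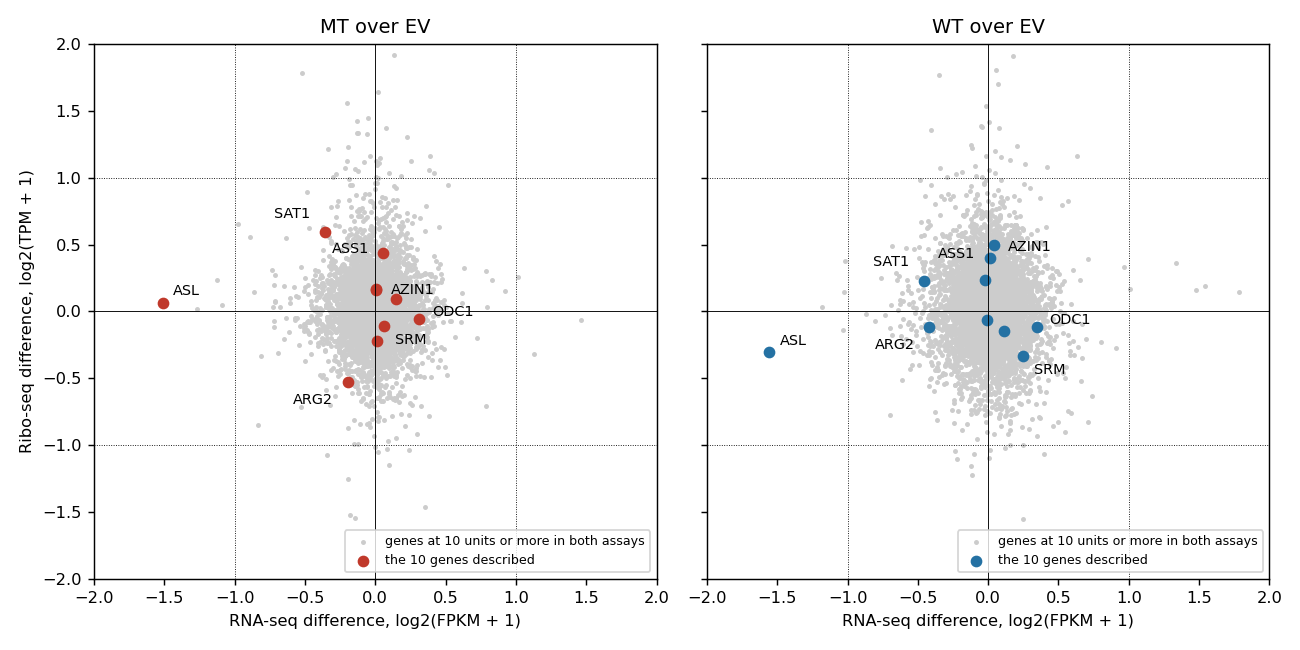
Difference in RNA-seq (x axis) against difference in Ribo-seq (y axis), both on the log2(value + 1) scale, in MT over EV (left) and WT over EV (right), with grey points for genes at 10 units or more in both assays, coloured points for the 10 genes, and dotted lines at the 2-fold rule. Genes beyond 2 on either axis are not drawn. ASL lies farthest to the left, at -1.51 and -1.56 on the x axis, SAT1 lies to the upper left and ODC1 and SRM to the right of 0.

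Among the regulators, OAZ1 (ENSG00000104904.12) held the highest value in every library, with 277 FPKM in MT, 269.8 FPKM in WT and 249.7 FPKM in EV and with footprints of 565, 479 and 530.1 TPM. Its mRNA was slightly higher in both PHYHD1 libraries (0.15 and 0.11), and its footprints were higher in MT (0.09) and lower in WT (-0.15). Values per gene do not separate footprints before and after the frameshift. Its ratio of footprints to mRNA was 2.04 in MT, 1.78 in WT and 2.12 in EV, above the all-gene median in every library, which held for no other gene of the set.

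AZIN1 (ENSG00000155096.15) had level mRNA, with 94.7 FPKM in MT, 96.8 FPKM in WT and 94.2 FPKM in EV. Its footprints stood at 69.2 TPM in MT, 86.9 TPM in WT and 61.4 TPM in EV, so WT was the highest. That log2 difference of 0.49 in WT over EV was the largest footprint difference among the 7 genes at 10 TPM or more, and 12% of all genes at that level differed as much. AZIN1 footprints amounted to 0.122 times those of OAZ1 in MT, 0.181 times in WT and 0.116 times in EV. ODC1 footprints amounted to 0.0204, 0.023 and 0.0227 times those of OAZ1, a ratio that hardly moved.

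**Figure D3:**
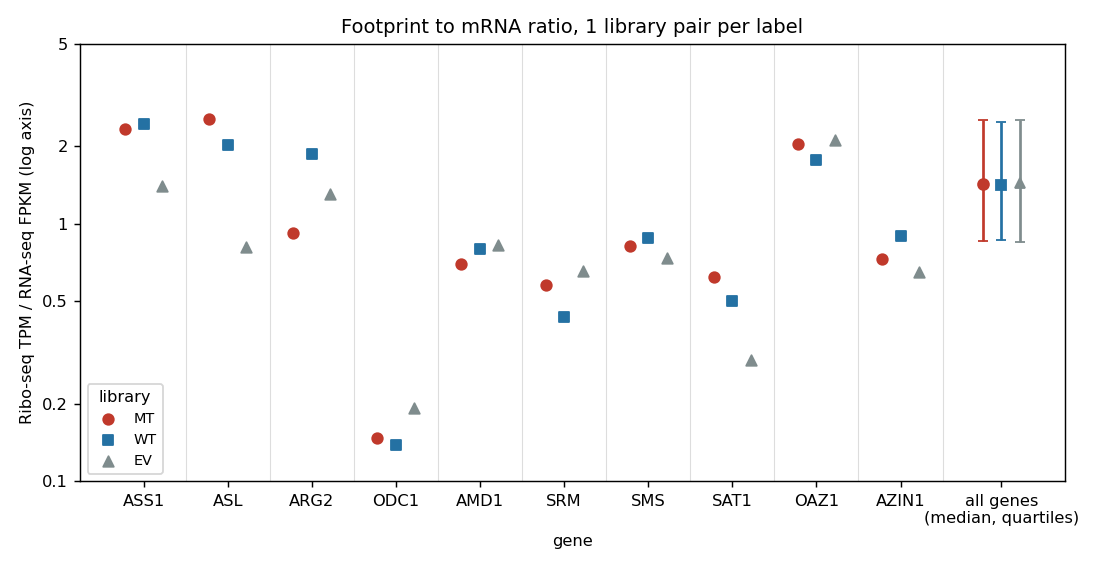
Ratio of Ribo-seq TPM to RNA-seq FPKM for the 10 genes in MT, WT and EV on a log axis, with the median and quartiles of all genes at 10 units or more in both assays at the right. ODC1 lies lowest, at 0.148, 0.138 and 0.192, and ASL stands at 2.54 in MT and 2.02 in WT beside 0.812 in EV.

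Counted as a set, 9 of the 10 genes could be compared in mRNA (ASS1 was under 1 FPKM) and all 10 in footprints. In mRNA 1 was lower and 0 higher in MT over EV and in WT over EV. Over all genes 0.29% and 0.499% passed (0.172% and 0.263% lower). The 1 gene was ASL, on whose lower mRNA in these contrasts the set was chosen, so this count supports nothing. In MT over WT 0 of 9 passed, where 0.508% of all genes did. In footprints 0 of 10 passed in MT over EV, WT over EV and MT over WT, against 2.83%, 3.36% and 3.19% of all genes, shares at which fewer than 1 gene in 10 would be called. The median log2 difference of the set was 0.01, -0.01 and 0.03 in mRNA and 0.08, -0.09 and 0.05 in footprints for MT over EV, WT over EV and MT over WT. Over all genes measured the medians lay between -0.01 and 0.03. The 10 values summed to 808, 807 and 792 FPKM and to 941, 870.3 and 883 TPM in MT, WT and EV.

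The wider pathway was read from 62 other genes, all of them in the table. They came from 9 pathway lists, of which the list of polyamine synthesis enzymes held only genes of the set. In mRNA 44 or 45 of them reached 1 FPKM in each comparison, and 0 passed the rule in MT over EV, WT over EV or MT over WT, where 0.29%, 0.499% and 0.508% of all genes did, shares at which fewer than 1 call among them would be made. The median differences were 0.02, 0.01 and -0.01 (log2). In footprints 46 or 47 reached 1 TPM, and 2 were higher and 1 lower in MT over EV, 0 passed in WT over EV, and 2 were higher in MT over WT. The shares over all genes were 1.7% higher and 1.14% lower in MT over EV, 3.36% in either direction in WT over EV, and 1.74% higher in MT over WT.

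These calls fell on SLC7A6, ARG1 and SLC18B1, all in comparisons that share the single MT footprint library. SLC7A6 (ENSG00000103064.15), which exchanges arginine for neutral amino acids as a partner of SLC3A2, had footprints of 16.7 TPM in MT and 5.49 TPM in WT, against 7.66 TPM in EV. Its mRNA was higher in both PHYHD1 libraries, at 13.2 FPKM in MT and 14.7 FPKM in WT beside 9.68 FPKM in EV. The footprint difference was thus 1.03 in MT over EV, -0.42 in WT over EV and 1.45 in MT over WT. The other calls, named after their values were seen, were on few reads. ARG1, the liver arginase, was at 1.55 TPM in the MT footprint library and listed at 0 in the other 5, and SLC18B1, a vesicular polyamine transporter, was at 1.46 TPM in MT, 3.22 TPM in WT and 4.4 TPM in EV. SLC3A2 itself was abundant and within the rule, at 151 FPKM in MT, 189 FPKM in WT and 177 FPKM in EV and at 779, 709.8 and 802 TPM.

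By the ratio of footprints to mRNA, 1 of the wider genes passed in MT over EV (ATP13A2), 1 in WT over EV (SLC38A9) and 2 in MT over WT (SLC7A6 and SLC7A7), all higher, against 2.19%, 2.47% and 2.49% of all genes in that direction. SLC38A9, the lysosomal arginine sensor of mTORC1, had footprints of 22.6 TPM in MT and 21.6 TPM in WT, against 12.4 TPM in EV, with mRNA of 5.19, 3.54 and 4.75 FPKM. Both PHYHD1 libraries were above EV in footprints by 0.82 and 0.75 (log2), short of the rule. ATP13A2, a lysosomal polyamine exporter, stood at 8.76 FPKM in MT, 12.1 FPKM in WT and 12.8 FPKM in EV and at 2.97, 1.84 and 1.4 TPM. SLC7A7, a relative of SLC7A6 named after its values were seen, had footprints of 6.69 TPM in MT, 2.91 TPM in WT and 4.02 TPM in EV. ATP13A3, a plasma membrane and endosomal polyamine importer, had 62.5, 62.1 and 64.5 FPKM and only 5.24, 7.17 and 4.8 TPM.

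The remaining lists stayed within the rule in both assays. The ornithine, proline and glutamate branch (10 of 11 measured) included OAT, which links ornithine to glutamate, at 89.1 FPKM in MT, 87.4 FPKM in WT and 91.3 FPKM in EV and at 136, 146 and 129.6 TPM. Methionine supply and salvage (8 of 8 measured) ranged from -0.17 to 0.17 (log2) over EV in mRNA and from -0.23 to 0.45 in footprints. AHCY was at 114, 116 and 105.6 FPKM and at 240.5, 263 and 242 TPM in MT, WT and EV, and MAT2A, which makes S-adenosylmethionine, at 108.5, 116 and 106 FPKM and at 85.4, 90.8 and 93.1 TPM. The largest footprint differences were those of MAT2B, the regulatory subunit for MAT2A, named after its values were seen, with 115 TPM in MT and 129.5 TPM in WT against 94.7 TPM in EV.

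Among other antizyme and breakdown genes, OAZ2 and SAT2 had their highest footprint value in WT, as AZIN1 did. OAZ2, a second antizyme, had footprints of 98.4 TPM in MT, 114 TPM in WT and 85 TPM in EV, and SAT2, a relative of SAT1, had 48.1, 62.8 and 41.9 TPM. Their mRNA differed by at most 0.20 (log2) in any comparison. The spermine oxidase SMOX was at 11.6, 10.8 and 10.4 FPKM and at 6.9, 6.79 and 6.18 TPM. AZIN2, a second antizyme inhibitor, was near 1 unit throughout, at 0.777, 0.679 and 1.26 FPKM in MT, WT and EV.

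Spermidine is also the donor for hypusine, the modified lysine of the translation factor EIF5A. EIF5A mRNA was at 293 FPKM in MT, 320.2 FPKM in WT and 273 FPKM in EV, and its footprints at 4337 TPM in MT, 4473 TPM in WT and 3888 TPM in EV. DHPS, which starts hypusine formation, was at 30.6, 26.6 and 26.7 FPKM and at 125, 130.2 and 119 TPM. Both were a little above EV in footprints in both libraries (0.08 to 0.20 on the log2 scale), within the rule. GAMT, of creatine synthesis, had 33.7, 32.4 and 35.6 FPKM and 57.8, 54.5 and 57 TPM in MT, WT and EV. DDAH1, which breaks down dimethylarginine, had 21.2, 26.7 and 23.4 FPKM and 57.3, 59.7 and 55.6 TPM, with an mRNA difference of -0.32 in MT over WT. CASTOR2, a relative of an arginine sensor, was at 2.73, 2.13 and 2.69 FPKM.

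**Figure D4:**
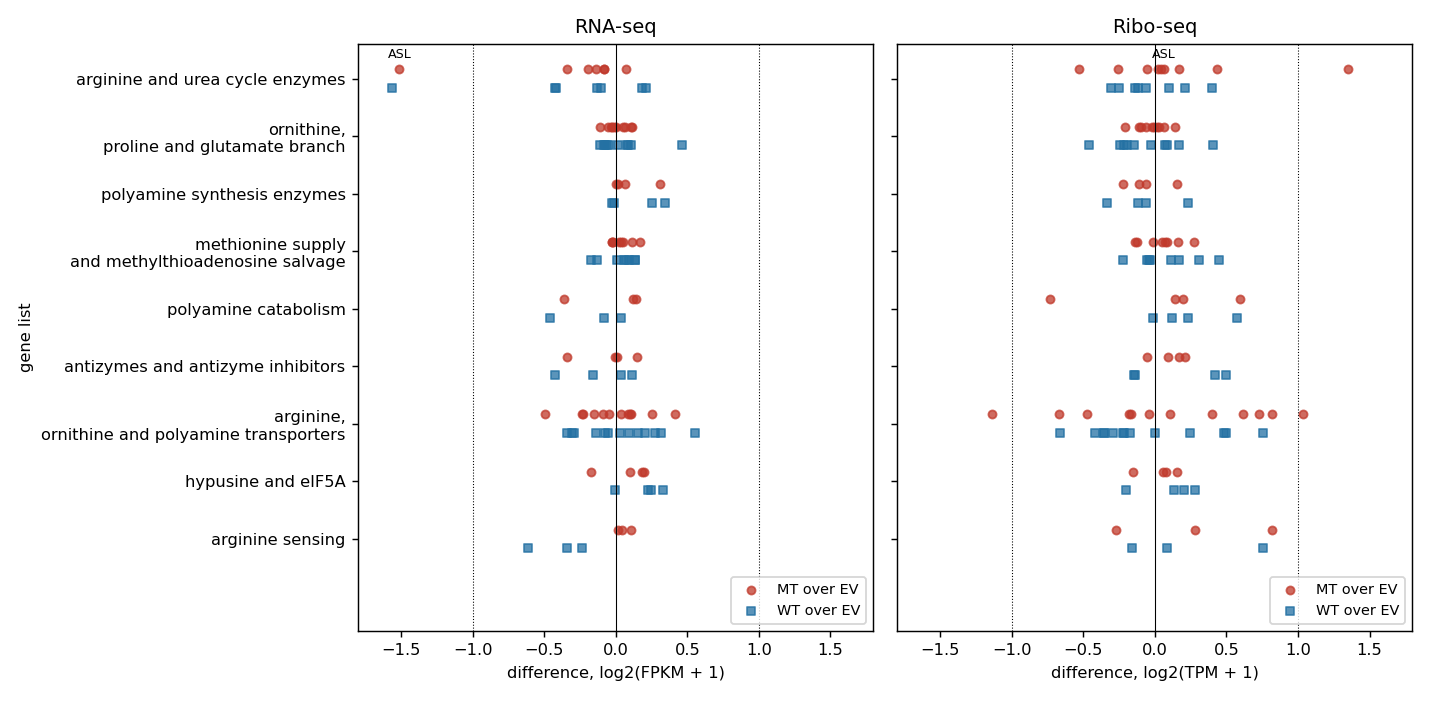
Differences over EV on the log2(value + 1) scale for each measured gene of 9 pathway lists, in RNA-seq (left) and Ribo-seq (right), with red circles for MT over EV and blue squares for WT over EV and dotted lines at the 2-fold rule. The lists include the 10 genes, and a gene may be in more than 1 list. In RNA-seq ASL is the only gene beyond the lines, and in Ribo-seq the points beyond them are ARG1, SLC7A6 and SLC18B1 in MT.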

How the data were processed

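One table with 1 column per library was used (20307 rows). No header names the RNA-seq unit; the deposited values, which sum to 459938 to 469859, were read as FPKM, and TPM over a larger gene set cannot be told apart from it. The deposited Ribo-seq values are TPM, since each column sums to 1000000. Per the labels' protocols, RNA was taken with TRIzol, cycloheximide (100 µg/ml) preceded lysis, footprints were cut with RNase I, and NEBNext kits were used; drug added to living cells can shift footprints. The submitters' processing notes name hg18, so no gene coordinates are given and RefSeq sequences carry their own build. Aligner, counting, strand and footprint trimming: not given in the sources used here. Unnamed rows (605, holding 0.153% to 0.564% of each column) and 7 symbols with conflicting rows were left out.

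A gene entered a comparison at 1 unit in a library compared (in both assays for the ratio), and log2(value + 1) differences understate changes of low genes. The design allowed for counts; as the values were normalized, no count test was run. Members, gene lists and rules were chosen with earlier results of these data known. Named beyond the 10 genes are PHYHD1, pathway genes past the rule with 10 units in 1 library, the 2 most abundant others of each list, and the 5 genes nearest ASL; others are marked. Not every gene that this rule selects is reported here. Genes at 100 units spread by a robust SD of 0.10 to 0.12 for RNA-seq differences (log2), and by 0.14 to 0.20 for footprints. The procedure was run on simulated data with counting noise only and with changes planted in genes at 10 units or more. That run does not cover other spread between libraries, nor changes in lower genes. Python 3.11.15, NumPy 2.4.6, pandas 2.3.3 and matplotlib 3.10.9 were used.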

Additional observations from a re-analysis of the deposited data

Results flagged for a closer look

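SLC7A6 footprints differed from EV in opposite directions in the 2 PHYHD1 libraries, by 1.03 in MT over EV and by -0.42 in WT over EV (log2). SLC7A7 footprints did likewise, by 0.62 in MT over EV and by -0.36 in WT over EV, at values under 10 TPM. Of 31 genes examined these were the ones with opposite signs of at least 0.2 in both. The 31 were the set and the wider genes that were abundant or past the rule, SLC7A7 among them for its ratio. They were thus partly chosen on these values, and the count does not show how rare the pattern is. SLC25A29, outside the 31, also met the criterion in MT and WT over EV, in footprints (0.40 and -0.29) and in mRNA (0.26 and -0.31). With 1 library each none of these differences was tested.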

How the results depend on the processing

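ASL kept its direction and its side of the 2-fold rule over EV under every alternative run for mRNA and for the ratio. In mRNA the log2 differences were -1.57 to -1.50 in MT over EV and -1.62 to -1.56 in WT over EV. By ratio they were 1.21 to 1.64 in MT over EV and 1.24 to 1.63 in WT over EV. ASL was chosen on these mRNA contrasts, which also enter the ratio, so its stability supports nothing. Changing the minimum could not alter its values. With a pseudocount of 0.1, 2 of the 10 genes passed by ratio in MT over EV, SAT1 (1.06) joining ASL; with WT and MT exchanged in Ribo-seq, which tests the pairing of the assays by label, 2 passed in WT over EV, again with SAT1 (1.05). The other counts over the 10 genes were the same. Of the 62 wider genes, a pseudocount of 0.1 gave 1 (CASTOR1) in mRNA in WT over EV and in MT over WT, 5 in footprints in MT over EV and in MT over WT, and 2 and 4 by ratio in MT over EV and WT over EV. A minimum of 10 units left 1 (SLC7A6) in footprints in MT over EV and in MT over WT and by ratio in MT over WT, and 0 by ratio in the other 2 comparisons. With no minimum 2 and 4 passed by ratio in MT over EV and MT over WT, and with the labels exchanged 0 passed by ratio in MT over EV and 3 in MT over WT (SLC7A6, SLC25A29 and CASTOR1). That exchange turns the sign of MT over WT footprints by construction, and the ratio of SLC7A6 became -1.31 and that of SLC7A7 -0.69. The counts over all genes ranged from 9 to 145 around 32 (mRNA, MT over EV), 15 to 177 around 55 (WT over EV) and 15 to 198 around 56 (MT over WT), from 85 to 660 around 304, 90 to 694 around 359 and 101 to 727 around 343 in footprints, and from 65 to 725 around 363, 83 to 802 around 435 and 101 to 876 around 499 by ratio, in the same order. The lowest counts came with the minimum of 10 units and the highest with the smaller pseudocount. Scaling to the median gene moved no library by more than 0.02 (log2). No paired analysis was possible because there is 1 library per label and assay and the labels carry no replicate numbers. Depth limits ASS1, ARG2 and SAT1 footprints most.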
